A study of Drosophila melanogaster with 3 samples.

Results

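The genes described here are 9 regulators of the mesoderm in Drosophila melanogaster, chosen by name as twi, Mef2, tin, bap, bin, how, htl, tup and zfh1. They were 9 of the 13945 protein-coding genes of the annotation used. All 9 were found under these symbols. The measurement was chromatin immunoprecipitation sequencing (ChIP-seq) of Deadpan (Dpn) in embryos of a transgenic line in which Dpn carries green fluorescent protein (GFP) at its C-terminus. The material was whole embryos aged 0 to 16 h, with males and females pooled, in 3 biological replicates of 1 group, all from the same line. Chromatin was sonicated and sized to 200 to 800 bp, and the fusion protein was precipitated through its GFP tag, although the antibody field of the labels reads dpn. There was no second genotype, stage or treatment, so no contrast between conditions could be tested, and the values below are positions, ranks and counts.

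Mesoderm in the fly embryo forms from ventral cells that express Twist and is then divided into heart, visceral muscle, body wall muscle and fat body by later transcription factors and by fibroblast growth factor (FGF) signalling. Dpn is a basic helix-loop-helix (bHLH) repressor related to Hairy and to the E(spl) proteins, best known from neural stem cells. In a whole embryo the peak lists cannot tell in which cells a position was occupied, and they hold no marker levels against which the tissue label could be checked.

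Dpn-GFP summits lay in or within 10 kb of 8 of the 9 genes, a rule that 71.7% of all protein-coding genes meet. The strongest were around Mef2, zfh1, tup and tin, although the top summits near Mef2 and tup were closer to starts of other genes, Pdrg1 and CG10602. Mef2, a MADS-box activator of muscle differentiation, held 5 peak summits inside its body. The strongest peak inside any of the 9 gene bodies lay in zfh1, which encodes a zinc-finger homeodomain repressor. No thresholded summit was found in or within 10 kb of bap, and the gene twi had 1, inside an intron that belongs to its long transcript only. In this account a summit is the single base at which a peak is highest, the body is the annotated gene from first to last base, and a summit counts as at a start when it lies within 500 bp of any annotated transcription start. The thresholded list held 6253 peaks with signals from 122 to 4421 in the authors' own units, whose scale is not defined. Rank 1 is the strongest peak of a list.

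By these rules 4 of the 9 genes had a thresholded summit at a start, namely Mef2, tin, how and htl, against 27.7% of all protein-coding genes. A summit inside the body was found in 5 of 9, namely twi, Mef2, how, htl and zfh1, against 14.1%. With 10 kb added on each side, 8 of 9 genes had a summit, against 71.7%, and this widest rule is one that most genes meet. These genes are long, with a median body of 21755 bp against 2166 bp for all protein-coding genes, and a longer body has more room for a summit. Per length, their bodies held 5.32 thresholded summits per 100 kb, set beside 3.75 per 100 kb in the merged bodies of all protein-coding genes and 4.67 per 100 kb over the arms as a whole. The value for the 9 genes leans on Mef2. It held 5 of the 11 body summits in 45363 bp of the 206.637 kb in all.

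**Figure D1:**
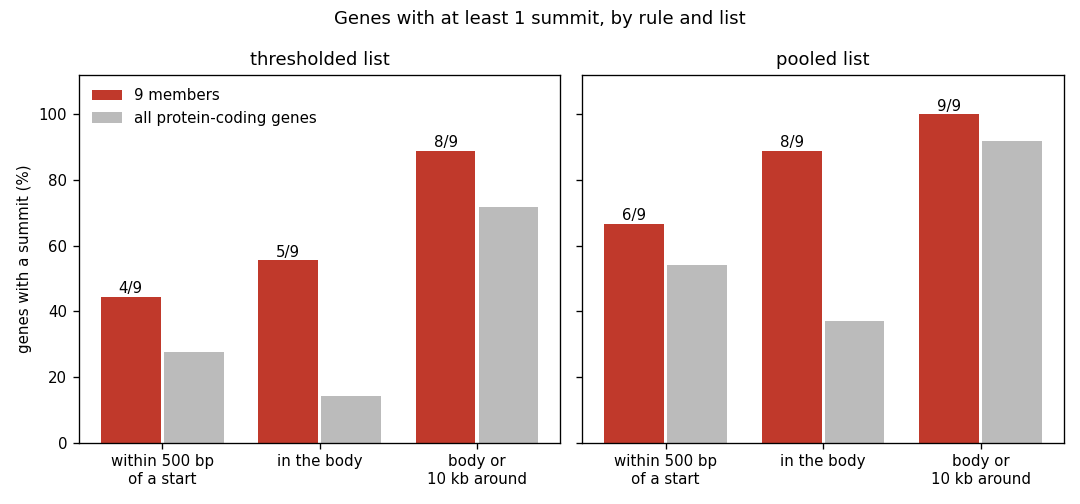
Share of genes with at least 1 summit at a start, in the body, or in the body or 10 kb around it, in percent on the vertical axis, for the 9 mesoderm regulators (red, with counts) and all 13945 protein-coding genes (grey), in the thresholded list (left) and the relaxed pooled list (right). In the thresholded list the counts are 4, 5 and 8 of 9, beside 27.7%, 14.1% and 71.7%.

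The plot of shares by rule shows the same 3 counts in the longer pooled list, which was called on the pooled replicates with a relaxed limit and holds background by design. In its 30000 peaks, 6 of 9 genes had a summit at a start, beside 54.2% of all genes, with tup and zfh1 added to the 4 of the thresholded list. A body summit was present in 8 of 9, beside 37.1%, and bap was the exception. All 9 had a summit in the body or 10 kb around, beside 91.9%. In the single replicates the counts at starts were 6 of 9 in replicate 1 (56.0% of all genes), 4 of 9 in replicate 2 (43.3%) and 6 of 9 in replicate 3 (55.4%). Replicate 2 had the shortest list, with 22475 peaks against 30000 in each of the other two. Its signals ran from 14.5 to 1518, those of replicate 1 from 9.62 to 874 and those of replicate 3 from 16.1 to 2106, so signals are not compared between lists here.

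In all, 30 thresholded summits lay in the 9 spans, 11 inside bodies, 13 upstream and 6 downstream. For 19 of the 30 the nearest protein-coding start belonged to the mesoderm gene, and for 11 it belonged to another gene. By annotation, 11 were within 500 bp of some start, 12 in introns, 6 between genes and 1 in a 5′ untranslated exon, and 0 fell in coding sequence. Of the 11 near a start, 4 were at a start of one of the 9 genes and 7 at a neighbour, 6 of those protein-coding and 1 a long non-coding RNA gene. Among all 6253 thresholded summits, 52% were within 500 bp of a start, 32.8% in introns and 13% between genes. Of the thresholded list, a further 0.448% lay in 5′ untranslated exons and 0.224% in coding sequence. The ranks of the 30 ran from 25 to 6200 with a median of 2762.5, and 16 were among its first 3126. Its first 500 summits held 3 of the 30.

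Twist is the bHLH activator that starts the mesoderm programme. Its gene, twi (FBgn0003900), spans chr2R:22985374-23048325 on the plus strand, 62952 bp with 3 annotated starts. That length comes from twi-RC, a transcript with a far upstream start, while the other transcripts together cover chr2R:23046108-23048325, which is 2218 bp. The single thresholded summit, at 23003315, lay 17941 bp after the twi-RC start in its second intron and had rank 4623. In the replicates it had rank 8148 in replicate 1, 3042 in replicate 2 and 6133 in replicate 3, so replicate 2 placed it highest and replicate 1 lowest. The closest protein-coding start was that of CG9896, 4431 bp away. Measured from the compact form of twi, the nearest thresholded summit was 18034 bp away. Even in the pooled list the nearest summit to any twi start was 2484 bp away, at rank 28922. The closest replicate summits stood 3035 bp (rank 5590), 3937 bp (rank 9608) and 3012 bp (rank 6928) from a twi start in replicates 1, 2 and 3. None of the 5 lists had a summit within 500 bp of a twi start.

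The Mef2 gene (FBgn0011656) lies at chr2R:9913496-9958858 on the minus strand and covers 45363 bp, with 3 starts and 11 transcripts. It had 8 thresholded summits, 5 of them in the body. The strongest body summit, at 9942986, lay 1778 bp after an internal start, in a 5′ untranslated exon of Mef2-RG that is part of the first intron in Mef2-RF and Mef2-RH. Its signal was 115.5 in replicate 1, 225 in replicate 2, 346 in replicate 3 and 683 in the thresholded list. These stood at rank 645, 351 and 376 in the replicates and at 398 in the thresholded list, so all 3 replicates placed it in the strong part of their lists. The other body summits had ranks 2502, 4014, 4303 and 6129 and all lay in introns, including a pair only 252 bp apart.

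At the first base of Mef2 the signal was weak by comparison. The summit at 9958859, 1 bp before the annotated start, had rank 4644, with rank 9682 in replicate 2 and 5461 in replicate 3. Replicate 1 had no summit within 100 bp of it, and its closest lay 107 bp away at rank 4821. The strongest peak of the whole set stood 1038 bp upstream of that start and was closer to another gene, with its summit 164 bp from the start of Pdrg1 and inside Pal1, which encodes a peptide-amidating lyase. It held rank 25 of the thresholded list with a signal of 2116. In the 3 replicates it had ranks 32, 24 and 24 with signals of 406, 707 and 1011. In replicates 2 and 3 its summit was nearest to the start of Pal1 instead, at 157 and 161 bp. On the other side of Mef2, the summit 2698 bp beyond its end (rank 2141) lay 95 bp from the start of Etf-QO, an electron transfer enzyme gene. Below the threshold, the strongest pooled summit of Mef2 lay inside it, 106 bp from an internal start, with rank 6551 and replicate ranks 18429, 6230 and 6669.

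Few genes carry as many body summits as Mef2. At least 5 were found in 126 of the 13945 genes, or 0.904%. That share does not allow for length: Mef2 covers 45363 bp, against a median of 2166 bp over all protein-coding genes. Genes of like length were not counted apart. Of the 47 genes with exactly 5, Mef2 included, those closest to it in body length were Bicra (45909 bp), wake (44020 bp) and Shrm (43661 bp), and they had 7, 8 and 9 summits when 10 kb on each side were added, beside 8 for Mef2. Because these genes were picked for the same body count, they do not show how many summits genes of this length usually hold.

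**Figure D2:**
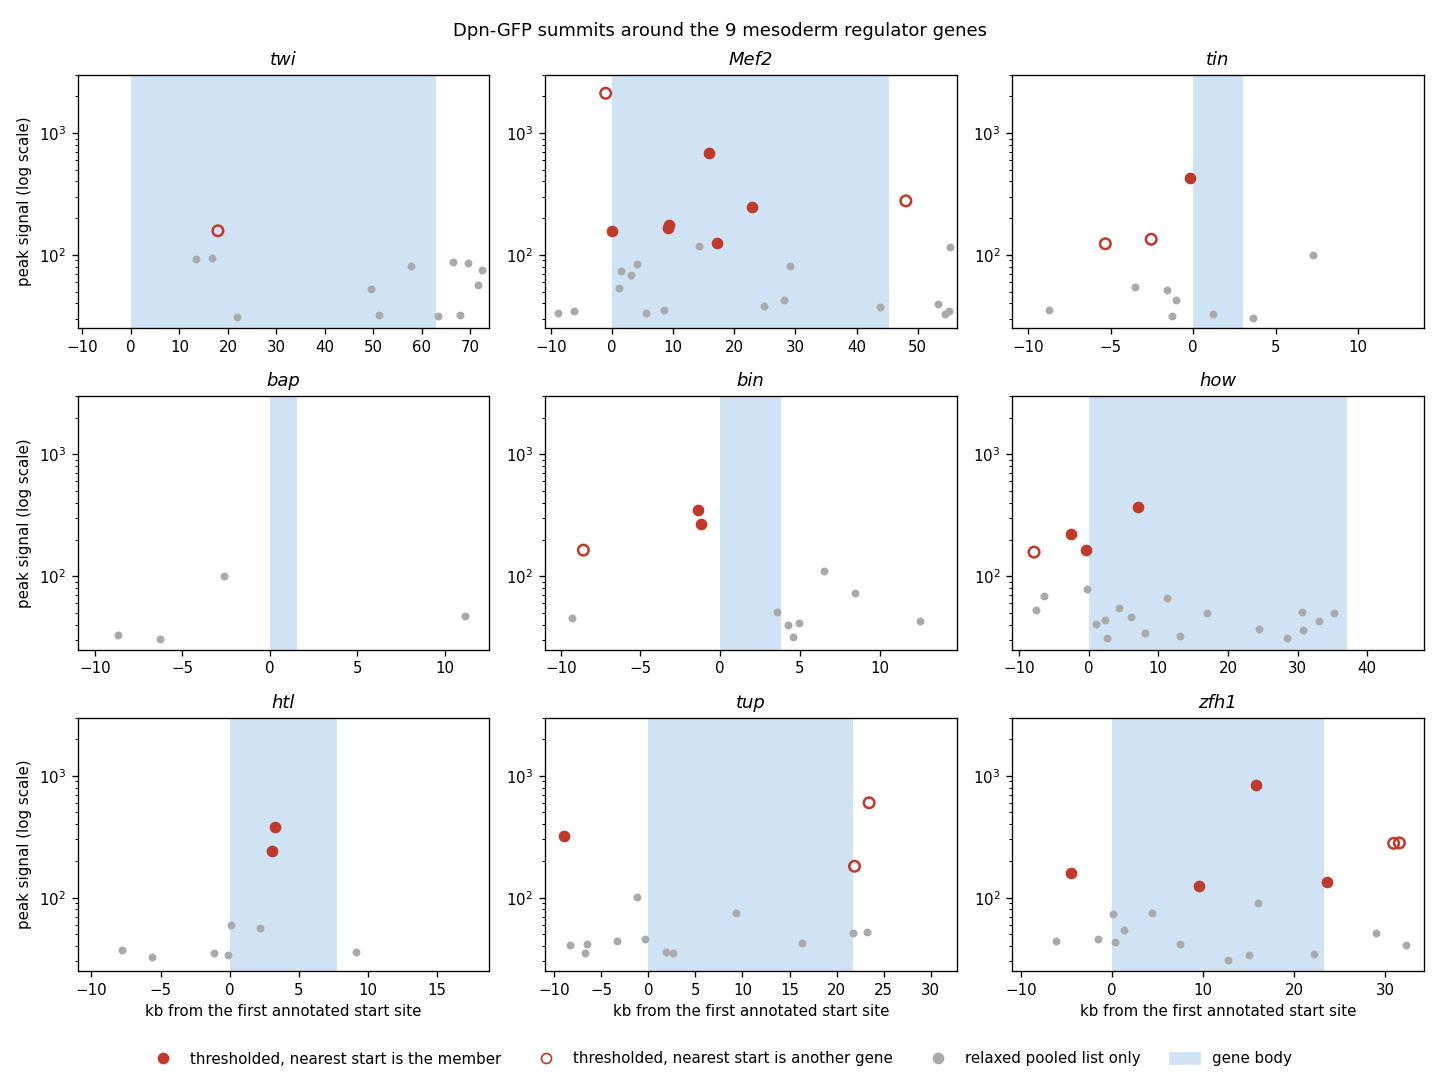
Peak signal (vertical axis, log scale) against distance from the first annotated start in kb along the gene (horizontal axis), 1 panel per gene, with the gene body shaded blue. Filled red points are thresholded summits whose nearest protein-coding start is the named gene, open red circles those nearest to another gene, and grey points summits in the relaxed pooled list only; Mef2 has 8 red symbols, zfh1 has 6 and bap has 0.

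The maps of signal by position place the thresholded tin summits all before the gene, while the pooled list added weaker ones in and after it. Tinman is the NK homeodomain factor needed for the heart and dorsal mesoderm, and tin (FBgn0004110) lies at chr3R:21378977-21381970 on the plus strand, 2994 bp with 1 start. Its strongest summit, at 21378772, lay 205 bp before the start. The signal there was 111 in replicate 1, 99.4 in replicate 2 and 218 in replicate 3, and 431 in the thresholded list at rank 1006. In each replicate this was also the strongest summit near tin, at rank 715, 1575 and 951. A further summit 2553 bp upstream was weaker, with rank 5595, and replicate 2 had none within 1492 bp of it, whereas replicates 1 and 3 had it at ranks 4336 and 4250. It lay in an intron of mod(mdg4), a BTB-domain chromatin protein gene, 977 bp from one of its starts. The farthest, 5334 bp upstream at rank 6200, was 68 bp from the shared start of 3 genes annotated as precursor units of mod(mdg4). The 101 bases centred on a summit, read on the plus strand of dm6, are given for the start summit (chr3R:21378722-21378822) and for the one in mod(mdg4) (chr3R:21376374-21376474), because only the latter of the 30 windows holds CACGCG, a preferred word of Hairy-class proteins. Capitals mark any match to the 12 words listed further on.
tin, 205 bp upstream: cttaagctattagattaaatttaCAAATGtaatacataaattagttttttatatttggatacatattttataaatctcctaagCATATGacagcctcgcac
tin, 2553 bp upstream: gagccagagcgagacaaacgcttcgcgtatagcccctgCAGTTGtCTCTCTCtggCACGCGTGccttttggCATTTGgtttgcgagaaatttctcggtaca
In the first window both capital words are of the CANNTG form, and the one nearer to the gene, CATATG, is a word that Twist binds. In the second window CACGCG occurs once on each strand in overlapping matches, 5 bp after the summit base. The other capitals there are a pair of CANNTG words and overlapping matches on the reverse strand to GAGAG.

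Bagpipe and Biniou act in the visceral mesoderm, bap as an NK homeodomain factor and bin as a Forkhead factor. The gene bap (FBgn0004862, chr3R:21388880-21390449, plus strand, 1570 bp) is the neighbour of tin in the same NK gene cluster. It had no thresholded summit in its span. The nearest was the start summit of tin at 10108 bp, just outside the 10 kb limit. Its strongest relaxed summit lay 2617 bp before the start, with pooled rank 7806 and signal 100.011, and with ranks 6815, 21671 and 9605 in the 3 replicates. In the replicate lists the summits nearest to the bap start stood 1326 bp (rank 14274), 2623 bp (rank 21671) and 2499 bp (rank 27023) away.

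The other visceral gene, bin (FBgn0045759, chr3L:6990622-6994447, plus strand, 3826 bp), had its thresholded summits upstream and none in its body. The pooled list had 1 in the body, 3590 bp from the start, at rank 16378. A pair of summits 203 bp apart lay 1412 and 1209 bp before its only start. The first had rank 1427 and replicate ranks 1747, 1366 and 1554, and the second had rank 2256 and replicate ranks 1729, 2461 and 2447. In both cases the 3 replicates lay close to each other. The third summit, 8582 bp upstream at rank 4365, was 337 bp from a long non-coding RNA start, and replicate 1 had no summit within 100 bp of it, its closest being 119 bp away at rank 9540. No list had a summit within 500 bp of the bin start, and the closest came from replicate 1 at 525 bp with rank 15399. Below the threshold the strongest pooled summit, at rank 6945, lay 6521 bp from the bin start and closer to Mp, a collagen gene. The windows of the pair, chr3L:6989160-6989260 and chr3L:6989363-6989463, are shown because they are adjacent and of like rank but differ in the words they hold.
bin, 1412 bp upstream: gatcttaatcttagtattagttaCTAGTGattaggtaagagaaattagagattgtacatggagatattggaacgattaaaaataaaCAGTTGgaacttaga
bin, 1209 bp upstream: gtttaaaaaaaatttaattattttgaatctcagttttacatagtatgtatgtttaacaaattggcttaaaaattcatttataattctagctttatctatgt
The first window has CTAGTG, the reverse strand of CACTAG and so a CACNAG word, and CAGTTG. None of the 12 words occurs in the second, whose GC content is 18.8% against 28.7% in the first.

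The FGF receptor Heartless is needed for mesoderm migration and heart formation, and htl (FBgn0010389) lies at chr3R:18045216-18052984 on the minus strand, 7769 bp with 2 starts. Both of its thresholded summits were in the body, in the first intron of htl-RB, 341 and 545 bp before the internal start and 204 bp apart. The nearer one had rank 1236, with replicate ranks 1159, 1419 and 1306 and replicate signals of 88.1, 107 and 183. The farther one had rank 2638, with replicate ranks 2768, 2006 and 4575, a wider spread. The outer start had summits in the relaxed lists alone. In the pooled list they lay 79 bp inside the gene (rank 13453) and 147 bp before it (rank 26813). The replicate summits there lay 175 and 67 bp inside the gene in replicates 1 and 2 (ranks 17142 and 10068) and 105 bp before it in replicate 3 (rank 18269). No summit of htl was nearer to another gene's start. The windows chr3R:18049657-18049757 and chr3R:18049861-18049961 are given in lower case throughout, since neither holds any of the 12 words.
htl, 341 bp upstream: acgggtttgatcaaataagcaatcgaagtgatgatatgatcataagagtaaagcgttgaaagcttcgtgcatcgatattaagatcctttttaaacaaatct
htl, 545 bp upstream: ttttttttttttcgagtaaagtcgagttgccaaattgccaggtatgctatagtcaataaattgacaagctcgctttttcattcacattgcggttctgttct
The absence of a word says only that these letters are not in the window.

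How (Held out wings) is an RNA-binding protein of the STAR family that acts in muscle and tendon cells. The how gene (FBgn0264491) spans chr3R:22042191-22079321 on the plus strand, 37131 bp with 1 start and 6 transcripts. Its strongest summit lay 7143 bp into the gene, in the second intron of all 6 transcripts, with rank 1289 and replicate ranks 1611, 1371 and 1347. The signal there was 74.5, 108 and 180 in the 3 replicates and 372 in the thresholded list. The start itself had a weaker summit, 387 bp upstream, with rank 4363 and replicate ranks 3996, 5457 and 4086. Between this summit and the gene pit lay another at 2546 bp upstream with rank 2887, and the last, 7831 bp upstream at rank 4615, was 62 bp from the start of pit, which encodes an RNA helicase. This one varied most, from rank 3730 in replicate 3 to 9706 in replicate 1. In replicates 2 and 3 its summit was nearest to the start of Fadd instead, at 11 and 13 bp. The windows of the start summit (chr3R:22041754-22041854) and of the intron summit (chr3R:22049284-22049384) are shown because they are the only 2 of the 30 with CAGCTG.
how, 387 bp upstream: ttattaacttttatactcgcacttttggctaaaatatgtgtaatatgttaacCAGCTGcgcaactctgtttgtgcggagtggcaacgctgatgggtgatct
how, 7143 bp downstream of the start: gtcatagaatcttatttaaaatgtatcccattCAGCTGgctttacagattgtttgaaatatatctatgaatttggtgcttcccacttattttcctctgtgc
CAGCTG begins 2 bp after the summit base in the first window and 18 bp before it in the second, and it is its own reverse complement. Among all 6253 windows 3.93% hold it.

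Islet, a LIM homeodomain factor of the heart and of motor neurons, is encoded by tup (FBgn0003896, chr2L:18859507-18881261, minus strand, 21755 bp, 1 start and 3 transcripts). Of its 3 thresholded summits the nearest to the tup start was 8993 bp upstream, between genes, with rank 1691 and replicate ranks 2236, 1766 and 1610. A long non-coding RNA start was closer to that summit, at 3357 bp. The strongest, at rank 509 with replicate ranks 579, 464 and 563, stood 1701 bp beyond the end of tup and 127 bp from a start of CG10602. The remaining one, 151 bp beyond the end at rank 3835, was 108 bp from starts of CG10602 and mRpL13, a mitochondrial ribosomal protein gene. No thresholded summit was inside tup. At its start the pooled list had a summit 355 bp away at rank 18239, replicate 1 had one at rank 7892, replicate 3 at rank 25677, and replicate 2 had none. A relaxed summit 1255 bp upstream was the best of those below the threshold, with pooled rank 7690 and replicate ranks 6952, 7121 and 13506.

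The zfh1 gene (FBgn0004606) spans chr3R:30765926-30789202 on the plus strand, 23277 bp with 2 starts and 3 transcripts. Its product is expressed in mesoderm and motor neurons. The strongest summit, at 30781776, had a signal of 163 in replicate 1, 270 in replicate 2 and 407 in replicate 3, and 840 in the thresholded list. These were ranks 304, 229 and 255 in the replicates and 248 in the thresholded list, a narrow spread. It lay 1482 bp before the internal start, in the third intron of zfh1-RB and zfh1-RE, where the antisense RNA gene CR45189 also overlaps it. A second body summit, in the same intron at rank 6069, stood at rank 26092 in replicate 1 against 5001 and 5907 in replicates 2 and 3. Upstream, 1 summit lay at 4526 bp (rank 4557, replicate ranks 5609, 4757 and 4742). Downstream, 1 lay 380 bp beyond the end (rank 5580), where replicate 2 had rank 11478 against 4391 and 5143. It was 2076 bp from a non-coding RNA start, closer than the nearest zfh1 start. A pair 637 bp apart (ranks 2123 and 2096) also lay downstream, in an intron of wts, the gene of the Warts kinase. Neither zfh1 start had a thresholded summit. In the pooled list one stood 82 bp after the first start at rank 10856, and replicates 1 and 3 had a start summit at ranks 11420 and 10504, while replicate 2 had none. The window of the strongest summit, chr3R:30781726-30781826, is given because it ranks highest of all inside a body and yet holds none of the 12 words, beside that of the distal tup summit, chr2L:18890204-18890304.
zfh1, 1482 bp before its internal start: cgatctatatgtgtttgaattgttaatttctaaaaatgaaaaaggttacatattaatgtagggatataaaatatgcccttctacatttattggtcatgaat
tup, 8993 bp upstream: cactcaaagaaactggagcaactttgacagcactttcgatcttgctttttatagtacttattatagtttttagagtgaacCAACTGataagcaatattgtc
The tup window holds 1 word of the CANNTG form, 30 bp after the summit base.

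Replicates placed nearly all of these summits. A summit of all 3 replicates lay within 100 bp of 27 of the 30, and for the other 3 (Mef2 at its first start, tin at 2553 bp and bin at 8582 bp) it was found in 2. Within 50 bp the count was 21, and within 250 bp it was 29. With only the first peaks of each replicate, the strongest by rank down to a cut not given here, it was 21. The thresholded list was derived from these same replicates, so such agreement is partly built in. The share over all thresholded summits is not given here. The plot of ranks shows replicates close together at some strong and some weak summits. In Mef2, the summit at rank 6129 had replicate ranks 6448, 6495 and 6789. Others had replicate ranks far apart, among them the start summit of tin (715, 1575 and 951), the twi summit, the how summit next to pit and the weakest zfh1 summit.

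**Figure D3:**
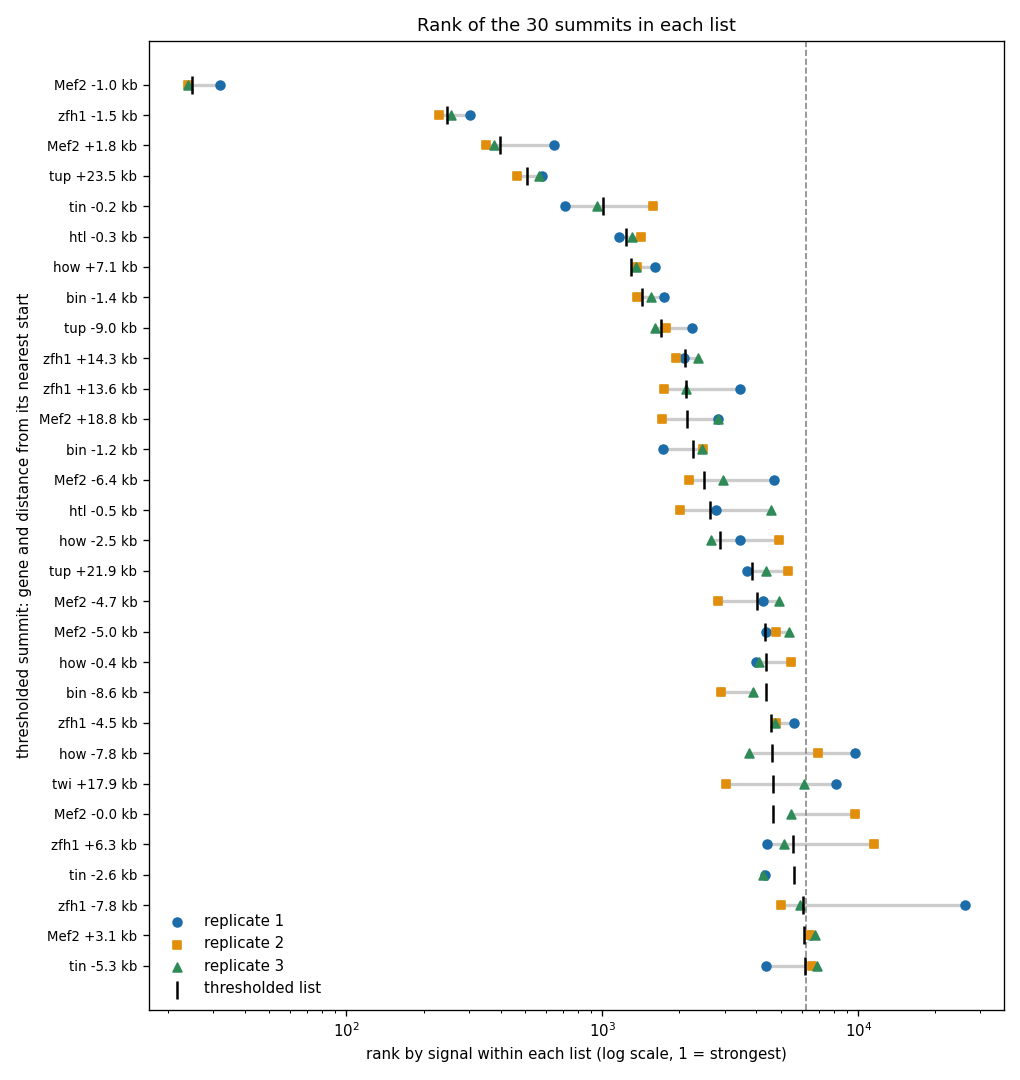
Rank by signal (horizontal axis, log scale, 1 the strongest) of each of the 30 thresholded summits in the 3 replicate lists (blue circle, orange square, green triangle) and in the thresholded list (black bar), 1 row per summit, named by gene and signed distance from its nearest start; the dashed line marks rank 6253. The top row, 1.0 kb before Mef2, has ranks 32, 24 and 24, and 3 rows lack a replicate symbol.

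The 12 words were searched on both strands in the 101 bases around each of the 30 summits and of all 6253. Hairy-class repressors prefer the words CACGTG and also CACGCG, and the N box is CACNAG. Twist is known to bind CATATG and likewise CACATG. The set also held the symmetric word CAGCTG and its general form, CANNTG, which covers every E-box word named here except for CACGCG and the N box. The others were TATCGATA for the factor DREF, GAGAG for the GAGA factor, CAGGTAG for the early activator Zelda, TCAAGTG for Tinman and the A/T-rich Mef2-type site. The Tinman word also contains the general E-box form. CACGTG was in 0 of 30 windows (0.8% of all) and CACGCG in 1 (1.18% of all). CACNAG was in 2 (10.3%), at bin and in Mef2, CATATG in 1 (3.77%) and CACATG in 0 (3.41%). CANNTG was in 15 of 30, against 35.6% of all windows, but with 100 bp on each side it was in 17 of 30, against 59.3%, so the count no longer stood above the share. In the 101-base windows GAGAG was in 4, against 9.18%. The Tinman, Mef2, DREF and Zelda words were in 0 of 30, and in 1.73%, 0.464%, 2.46% and 0.336% of all windows. GC content of the 30 windows ran from 17.8% to 58.4% with a median of 34.2%, beside a median of 33.7% over all windows. Summits also came in pairs: 6 of the 30, in Mef2, bin and htl, had another within 300 bp, and so did 646 of all 6253 (10.3%). In Mef2 and htl the paired peaks overlapped, and in bin they did not. Whether such a pair is a single broad peak was not tested.

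Around these regulators, 96 further genes of mesoderm and muscle in 7 lists were examined, and 94 were matched. A thresholded summit was at a start in 21 of the 94, in the body in 27, and in the body or 10 kb around in 69. The start count reads below the share over all genes (27.7%) and the body count above it (14.1%), while the widest rule was close to it (71.7%). These lists too hold long genes, with list medians from 8859 to 17486 bp.

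Counts at starts were highest among early mesoderm and FGF pathway genes, at 5 of 10, and 5 of 10 had a body summit. The strongest there was at cact, which encodes the inhibitor of Dorsal, with signal 742 and rank 337 at 188 bp from its start, followed by dl, the Dorsal gene, with signal 664 and rank 422, although that summit was nearest to Dif. Of 10 attachment and tendon genes, 4 had a start summit and 4 a body summit. Their strongest were near vkg, a collagen gene (rank 314), and Lrt (rank 353), both closer to another gene, Rtnl1 and Fem-1. For myoblast fusion genes the counts were 4 and 3 of 14. The adhesion gene kirre, which is 394149 bp long, held 21 body summits, the best at rank 322 and 2312 bp from a start, and the strongest summit near mbc (rank 408) was 113 bp from tst.

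Of 19 muscle structure genes, 4 had a start summit and 4 had at least 1 body summit. The highest ranks of any of the 7 lists were here, at Msp300, a giant nuclear-envelope protein gene (signal 1050, rank 145, at 352 bp from a start), and near Tm1, a tropomyosin gene (signal 1019, rank 158, but 92 bp from the start of Cp190). Of 17 somatic muscle identity genes, 2 had a start summit and 3 had a body summit. Both start summits led that list, at org-1, a T-box gene (rank 326, at 327 bp), and Poxm, a paired-box gene (rank 863, at 387 bp). In cardiac and dorsal mesoderm genes the counts were 1 and 4 of 14, with the strongest near abd-A (rank 350, 29230 bp from its start and closer to Glut3, at 10564 bp) and in dpp, the BMP ligand gene (rank 776, at 5284 bp). For visceral mesoderm genes the counts were 1 and 5 of 12. The strongest summit there, at rank 268 with signal 812, was shared by the neighbouring Forkhead genes slp1 and slp2.

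**Figure D4:**
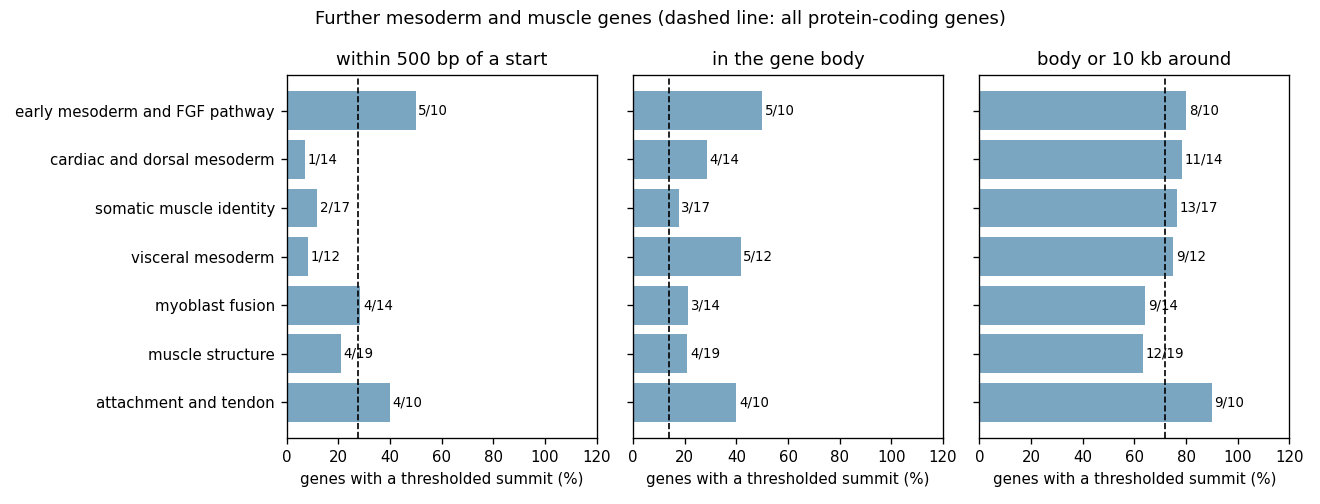
Percent of genes in 7 further lists with a thresholded summit at a start (left), in the body (middle) and in the body or 10 kb around (right), with counts beside the bars; the dashed line marks the share of all protein-coding genes (27.7%, 14.1% and 71.7%). At starts, cardiac, muscle identity and visceral genes lie at 1 of 14, 2 of 17 and 1 of 12, and in bodies every list lies above its line.

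The plot of further lists sets these counts beside the shares over all genes. No list was tested, and with 10 to 19 genes a list moves by several percentage points for each gene.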

How the data were processed

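The deposited files were peak lists of a ChIP-seq experiment in 3 biological replicates. Those on dm6 were used: 1 list per replicate, 1 on the pooled replicates and 1 thresholded, 5 in all. Another 5 on dm3 were not used, since the reference was Release 6 and nothing was converted. Per the deposited text listings, a control entered each call, the relaxed lists were made to feed the IDR step (irreproducible discovery rate), and the thresholded list was derived from the others. Aligner, caller, IDR limit and read depth are not given in the sources used here, so precision from depth is unknown. The signal of each peak (column 7) is the authors' deposited value and served to rank peaks. The deposited −log10 q-value was not used to grade peaks. The summit is the deposited offset added to the peak start, and positions are 1-based.

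Genes came from Ensembl release 115 (BDGP 6.54), arms 2L, 2R, 3L, 3R, 4 and X, without transposable elements. RefSeq gave the same bounds for all 9 genes, and the genome sequence is NCBI RefSeq's. Python 3.11.15, pandas 2.3.3, numpy 2.4.6 and matplotlib 3.10.9 were used. Of 300 summits planted at known places, 300 were recovered. The genes and lists were chosen with earlier results of these data known. Named are the 9 genes, the genes nearest to their summits, up to 2 genes per further list with the strongest summit, and the 3 genes nearest in length to the one with most body summits. Of the listed symbols, Cadn and schizo were not matched, and CF2 was matched as Cf2. No test was made. Alternatives varied the distances, the list, the peak overlap, the replicates and the word window.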

Additional observations from a re-analysis of the deposited data

How the results depend on the processing

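Of the values recomputed under another setting, 51 stayed within 1.5 times of the value reported and 15 moved further. The 51 include words that stayed at 0. In the narrower windows of 25 bp each side a 0 could not change. The 4 genes with a start summit became 2 at 250 bp and 2 among the first 3126 summits of the list. The 5 with a body summit became 8 in the relaxed pooled list. The 30 summits became 19 where the nearest start had to be the gene's own, 16 among those first 3126 and 126 in the pooled list. In windows of 100 bp each side, CACGTG was in 1 of 30 (1.95% of all windows), CACGCG in 3 (3.17%), CACNAG in 4 (20%), CACATG in 1 (7.12%), GAGAG in 7 (20.8%) and TCAAGTG in 2 (3.55%). At 25 bp CACNAG was in 1 (5.1%), CATATG in 0 (1.95%) and CANNTG in 8 (19%). Another setting replaced the 6253 thresholded peaks with the 4324 first peaks of each replicate list that all replicates shared. The 3 gene counts were then 3, 4 and 7. Shares over all protein-coding genes are not given for the shared peaks, the 250 bp limit or the first 3126 summits. Counts under those settings therefore cannot be read as high or low. Without the long transcript of twi, an alternative added after seeing the data, the 3 gene counts in the thresholded list were 4, 4 and 7, with 29 summits. No paired analysis was possible because there is 1 group. Depth, the control and the IDR limit are unknown here, so a gene with no summit was not shown to be unbound.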
